A study of Mus musculus with 6 samples.

Results

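Lysine deacetylases and the corepressor NCoR1 were followed in mature medullary thymic epithelial cells (mTEChi) of mice with and without the gene for p53. The 10 genes were taken by symbol from the 51810 genes of the deposited series table, and all 10 had a row: the class I genes Hdac1, Hdac2 and Hdac3, the class IIa genes Hdac4, Hdac5, Hdac7 and Hdac9, the class IIb gene Hdac10, the class IV gene Hdac11, and Ncor1. The rule takes genes by symbol and holds no threshold on a measured value. The study has 6 poly(A) RNA libraries, each from 75000 cells sorted from thymi of mice aged 4 to 5 weeks: 3 from mice without Cre whose genotype is given as P53-WT (WT), and 3 of genotype P53-cKO, a conditional deletion of Trp53 (cKO). The labels name no Cre driver, strain or sex, and do not say whether the control mice carry the conditional allele or whether animals were pooled. Whether libraries of 1 group came from separate animals is not stated, so the p-values rest on a spread among libraries that could be technical only.

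Deacetylases remove acetyl groups from lysines of histones and other proteins, which generally goes with lower transcription at the genes they are brought to. HDAC1 and HDAC2 are close relatives that work inside the SIN3, NuRD and CoREST complexes, while HDAC3 becomes active when it is bound by a corepressor such as NCoR1. Class IIa proteins have little catalytic activity of their own, shuttle between nucleus and cytoplasm, bind the MEF2 transcription factors, and contact the NCoR1 complex. In mice, Hdac3 is needed for medullary epithelial cells to develop. p53 itself is a substrate of several deacetylases.

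Library totals lay between 45457892 and 50128045 counts and differed little between groups. Trp53 had 4837 to 5351 counts in WT and 361 to 386 in cKO (log2 fold change −3.81, SE 0.0999, edgeR adjusted p = 5.76e-10), so every library matched its label. All 12 markers of mature medullary cells, Aire among them, had counts in every library, and their summed level was 34720 to 38130 CPM (counts per 1000000 of the library total) in WT and 34230 to 37090 in cKO. Aire itself had 861, 748 and 704 TPM in WT and 495, 705 and 680.0 TPM in cKO. On the CPM scale with TMM scaling its groups did not overlap, with cKO lower, but it did not pass the threshold (log2 fold change −0.32, SE 0.123, unadjusted p = 0.0248 and adjusted p = 0.516 by edgeR), and its part in the members' levels was not tested. All listed markers of other cell types also had counts in every library. Thymocyte markers summed to 84.6 to 163 CPM in WT and 86.3 to 151 in cKO, B cell markers to 59.6 to 73.2 and 61.8 to 74.1, and myeloid markers to 585 to 787 and 686 to 1009. Fibroblast and endothelial markers summed to 168 to 191 CPM in WT and 162 to 196 in cKO, and cortical epithelial markers to 1486 to 1652 and 1433 to 1596. Red cell markers were the one list whose sums did not overlap, at 84.7 to 90.9 CPM in WT and 56.5 to 82.6 in cKO, and none of them was called. The part of these cells in the levels given here was not tested. In bulk RNA, fewer cells of a type and less RNA per cell cannot be told apart.

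No member changed past the threshold with loss of p53. Hdac2 had the highest level where the counts of an Hdac1 pseudogene are left aside. With those counts added to Hdac1, Hdac1 had the higher mean in cKO and Hdac2 the higher mean in WT. Levels are the authors' TPM values, which are counts per kilobase of exon rescaled to 1000000 per library. They set genes side by side per annotated exon length, from 3.38 kilobases for Hdac10 to 15.8 for Hdac4. Annotated exons that these cells do not use would lower a value, and exon use was not tested. Hdac2 had 92.9 ± 4.66 TPM in WT (SD, n = 3), above 96.9% of the genes in the table. Hdac1, Hdac3, Hdac11 and Ncor1 followed within a narrow band, with WT means of 25.6, 24.8, 22.8 and 20.8 TPM. The place of Hdac11 is uncertain, since 38.6% to 42.3% of its counts in WT were also counted for Gm44002, an overlapping gene. The order was not redone without those counts. Hdac9 had 10.1 TPM, Hdac7 7.18, Hdac10 4.94, Hdac4 4.05 and Hdac5 3.09, the last still above 65.6% of the table. In WT, 3 of the 9 neighbouring pairs in this order did not overlap in their libraries, namely Hdac2 from Hdac1 (counted without the pseudogene), Ncor1 from Hdac9, and Hdac9 from Hdac7. In the other 6 pairs the libraries overlapped. Without WT library 1, or without WT library 2, 6 pairs were apart. Hdac1 and Hdac3 changed places without WT library 2, and otherwise leaving out a WT library kept the order.

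**Figure D1:**
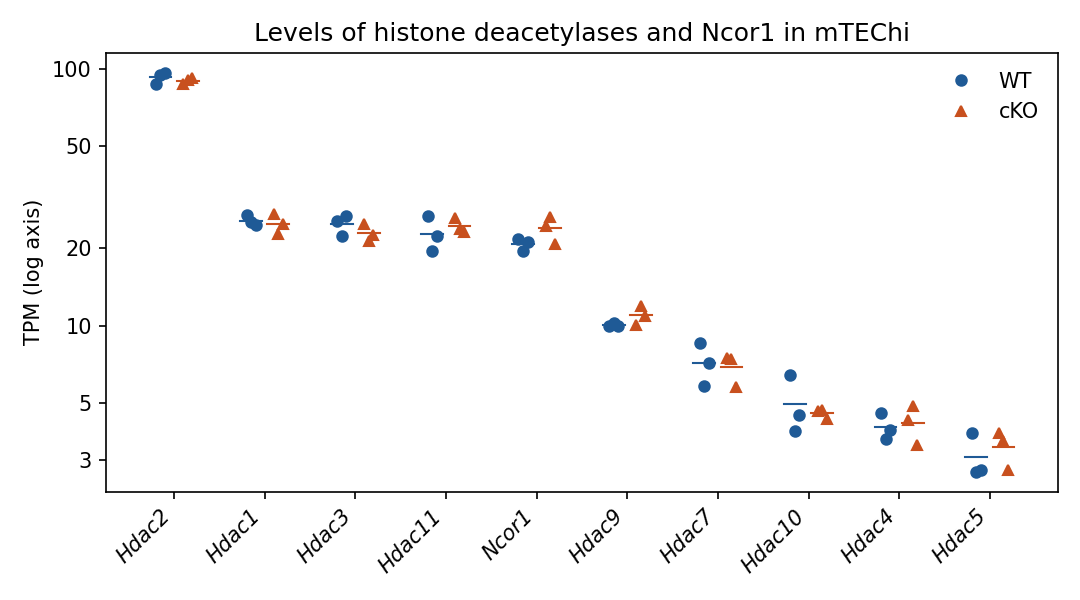
TPM (log axis) of the 10 genes in each of 3 WT libraries (circles) and 3 cKO libraries (triangles), with the group mean as a bar, ordered by the WT mean. Hdac2 lies between 87.0 and 96.3 TPM in all libraries, 4 genes share a band with WT means of 20.8 to 25.6 TPM, and the class IIa genes and Hdac10 lie lower. The places of Hdac1 and Hdac11 are uncertain, because of the counts of Gm10093 and Gm44002.

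Over the 28543 genes that passed the filter on low counts, edgeR called 17 past an adjusted p of 0.05, which is 0.0596% of them (0.0245% or 7 higher and 0.035% or 10 lower in cKO). The balance turned in other fits: DESeq2 called 0.88% of the genes it gave an adjusted p, 131 higher and 50 lower, and edgeR with the replicate number as a block 0.711%, 138 higher and 65 lower. Without WT library 1, WT library 3 or cKO library 2, 7, 6 and 7 genes were called. All 10 members passed the filter. Of them edgeR called 0, with 0 at an unadjusted p under 0.05 (8.51% of all genes tested). DESeq2, limma and edgeR with the block also called 0, each with 0 at an unadjusted p under 0.05, and without cKO library 3 that count was 1, Ncor1. The median log2 fold change, cKO over WT, was −0.02 for the members and 0.00 (−0.005 before rounding) for all genes tested, with 5 members above 0 and 5 below. In none of the 10 did the libraries of the groups separate on the CPM scale with TMM scaling, against 14.4% of all genes. The 95% intervals, taken gene by gene and not adjusted, ran no lower than a ratio of 0.695, for Hdac10, and no higher than 1.37, for Hdac5. A p that misses the threshold does not show that the groups were equal.

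**Figure D2:**
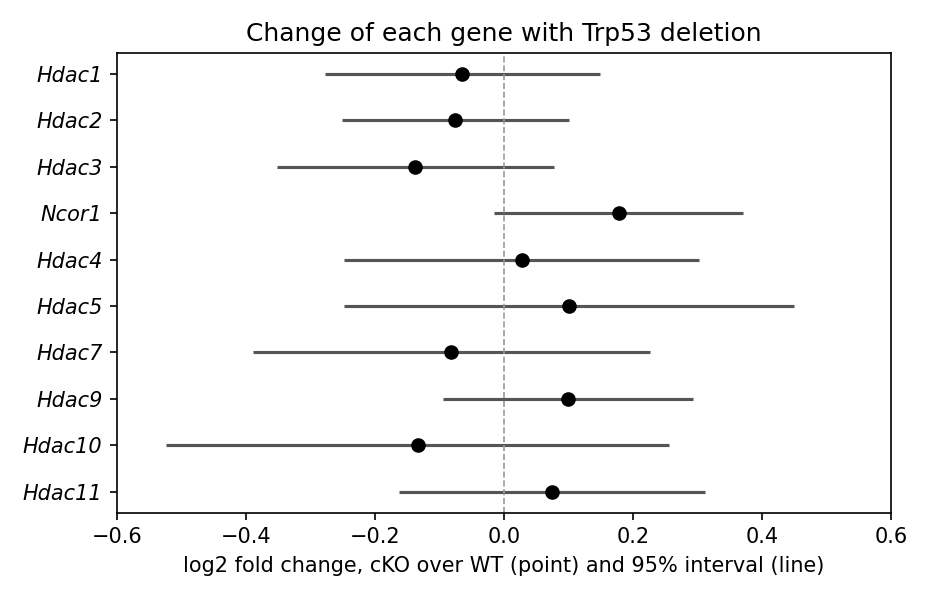
Log2 fold change, cKO over WT, of each gene by edgeR (point) with its 95% interval (line). All 10 intervals include 0, and that of Ncor1, from −0.02 to 0.37, comes nearest to leaving it out.

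Hdac1 (ENSMUSG00000028800, chromosome 4, 129516104 to 129542713 in mm10) encodes the founding class I enzyme. It had 26.9, 25.2 and 24.7 TPM in WT libraries 1 to 3 and 27.1, 22.6 and 24.8 TPM in cKO libraries 1 to 3. The cKO libraries lay on both sides of the WT range, and the log2 fold change was −0.06 (SE 0.0985, 95% interval −0.28 to 0.15, edgeR adjusted p = 0.908). The level of Hdac1 is uncertain, because a near-identical copy took more counts than the gene. Gm10093 (ENSMUSG00000061062, chromosome 17), a processed pseudogene, is an intronless copy of nearly the whole Hdac1 coding sequence. Its 1444 annotated bases matched the coding sequence of the Hdac1 reference transcript at 1435 positions, 99.38%, with 9 mismatches and no gap. The longest identical run was 450 bases, and 67.3% of the 100-base words of Gm10093 also occur in Hdac1 transcripts. The stretch where the 2 sequences differ most shows how little there is to tell them apart. It spans coding bases 363 to 482, counted from 1 at the start codon, read from the GENCODE M21 transcripts of GRCm38, with the 6 mismatched bases in capitals:
Hdac1: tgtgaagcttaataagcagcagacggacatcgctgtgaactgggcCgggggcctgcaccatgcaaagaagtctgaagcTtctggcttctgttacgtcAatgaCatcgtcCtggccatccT
Gm10093: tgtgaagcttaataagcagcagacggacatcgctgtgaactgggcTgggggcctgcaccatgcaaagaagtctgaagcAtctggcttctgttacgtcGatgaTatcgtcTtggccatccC

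The Hdac1 gene had 1839, 1870 and 1855 counts in WT and 1918, 1543 and 1906 in cKO, while Gm10093 had 4452, 4895 and 4995 in WT and 4657, 4718 and 4961 in cKO. The pseudogene thus held 2.42 to 3.06 times the counts of the gene. A read that fits both loci equally well has more than 1 alignment and so did not enter the deposited counts, and the files do not show which of the 2 loci gave rise to the reads counted for Gm10093. Summing both counts at the exon length of Hdac1 gives 92.0, 91.3 and 91.2 TPM in WT and 93.0, 91.9 and 89.5 TPM in cKO. The sum was 91.5 ± 0.456 TPM in WT and 91.5 ± 1.82 in cKO (SD, n = 3 each), and every library lay within the WT range of Hdac2. Hdac2 itself had means of 92.9 TPM in WT and 89.7 in cKO. In cKO the sum thus had the higher mean. The distance between Hdac1 and Hdac2, and their order in cKO, therefore depend on where the reads of Gm10093 belong. Reads that fit both loci equally well are missing from the sum too, and how many there were is not known. Between genotypes, the log2 fold change of the sum was −0.02 (SE 0.0726, 95% interval −0.18 to 0.13, edgeR adjusted p = 0.961), and that of Gm10093 alone −0.01 (SE 0.0763, adjusted p = 0.989).

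**Figure D3:**
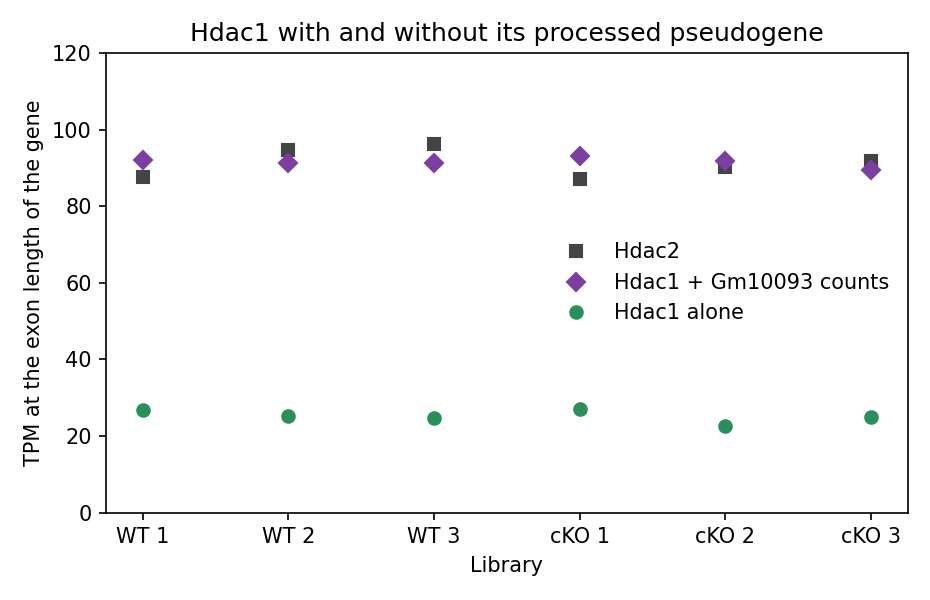
TPM in each of the 6 libraries of Hdac2 (squares), of Hdac1 alone (circles), and of the summed counts of Hdac1 and Gm10093 at the exon length of Hdac1 (diamonds). Hdac1 alone lies at 22.6 to 27.1 TPM, and the sum at 89.5 to 93.0, beside Hdac2.

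Hdac2 (ENSMUSG00000019777, chromosome 10, 36974544 to 37001889), the paralog of Hdac1, had 87.55, 94.8 and 96.3 TPM in WT and 87.0, 90.2 and 91.8 TPM in cKO. The groups overlapped, with library 1 the lowest in each (log2 fold change −0.08, SE 0.0813, 95% interval −0.25 to 0.10, edgeR adjusted p = 0.859). Only 0.112% of its 25-base words occur in transcripts of other genes, against 42.1% for Hdac1. With Hdac1 counted without Gm10093, Hdac2 made up 43.8% to 50.4% of the summed TPM of the 9 deacetylases in WT and 44.5% to 48.5% in cKO. The sum itself, counted the same way, was 188 to 200.1 TPM in WT and 189 to 196 in cKO. Adding the counts of Gm10093 to Hdac1 would lower the share of Hdac2, and the shares were not redone that way.

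Hdac3 (ENSMUSG00000024454, chromosome 18, 37935844 to 37955016), the enzyme of the NCoR complex, had 25.5, 22.3 and 26.6 TPM in WT and 24.8, 21.5 and 22.5 TPM in cKO. WT library 2 lay among the cKO libraries, and the other WT libraries were above all 3. The log2 fold change was −0.14 (SE 0.0994, 95% interval −0.35 to 0.08, edgeR adjusted p = 0.755). No 25-base word of Hdac3 occurs in transcripts of another gene and no exon base overlaps one. On centred log2 CPM over the 6 libraries, the profiles nearest to that of Hdac3 were those of Eln, Macroh2a1 and Gm38287, with root mean square differences of 0.0179, 0.0233 and 0.0265, where the median over 22023 genes was 0.201. With so many genes and 6 libraries, near matches are found by number alone.

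Ncor1 (ENSMUSG00000018501, chromosome 11, 62316426 to 62458541), the scaffold that binds and activates HDAC3, had the smallest p of the 10. It had 21.8, 19.5 and 21.1 TPM in WT and 24.5, 26.5 and 20.7 TPM in cKO. The levels of cKO libraries 1 and 2 were above every WT library, and cKO library 3 was inside the WT range. The log2 fold change was 0.18 (SE 0.0890, 95% interval −0.02 to 0.37, unadjusted p = 0.0679 and adjusted p = 0.630 by edgeR), and it was positive under all 15 alternatives. The nearest profiles by the same measure were those of Tada2b, Usp9x and Btd, at 0.0234, 0.0251 and 0.0261, against a median of 0.206. Other genes hold 4.205% of its 25-base words, and 0.640% of its exon bases overlap Pigl.

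Hdac3 and Ncor1 lay on opposite sides of 0, and their TPM ratio did not overlap between groups. The ratio of Hdac3 to Ncor1 was 1.17, 1.14 and 1.26 in WT and 1.01, 0.810 and 1.08 in cKO. Ratios of Hdac2 to Hdac1 (3.25 to 3.90 in WT and 3.21 to 3.98 in cKO) and of Hdac9 to Hdac4 (2.18 to 2.84 and 2.34 to 3.20) overlapped. These ratios were chosen with earlier results of the data known and are descriptions. Of single genes 14.4% also did not overlap, and an exact permutation test of 3 against 3 libraries cannot give a p below 0.1.

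Per kilobase of annotated exon the class IIa genes were low, and Hdac9 was the highest of them. In WT Hdac9 had 2936, 3285 and 3216 counts over 14.8 kilobases, and Hdac3 2052, 1942 and 2354 over 4.05. Hdac9 (ENSMUSG00000004698, chromosome 12, 34047580 to 34917095) encodes a deacetylase that also exists as a short form without a catalytic domain, MITR, which gene-level counts do not resolve. It had 9.97, 10.3 and 9.94 TPM in WT and 10.04, 11.9 and 10.9 TPM in cKO. In TPM its WT coefficient of variation was the smallest of the 10 members, 1.95%, and cKO library 1 lay within the WT range (log2 fold change 0.10, SE 0.0896, 95% interval −0.10 to 0.29, edgeR adjusted p = 0.823). On the CPM scale with TMM scaling Hdac1 was more even in WT, at 39.1 ± 1.03 against 66.3 ± 2.96 for Hdac9 (SD, n = 3).

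Hdac7 (ENSMUSG00000022475, chromosome 15, 97792664 to 97844502), known for its part in thymocyte selection and in blood vessels, had 8.59, 5.80 and 7.14 TPM in WT and 7.49, 7.40 and 5.76 TPM in cKO. The lowest cKO library was just below the lowest of WT, and the others lay inside the WT range (log2 fold change −0.08, SE 0.142, edgeR adjusted p = 0.923). Hdac4 (ENSMUSG00000026313, chromosome 1, 91928779 to 92195699), a regulator of cartilage growth, had 4.58, 3.62 and 3.93 TPM in WT and 4.29, 4.86 and 3.42 TPM in cKO, so the highest and the lowest library were both cKO (0.03, SE 0.127, adjusted p = 0.975). Hdac5 (ENSMUSG00000008855, chromosome 11, 102194432 to 102230166), the close relative of Hdac4, had 3.83, 2.71 and 2.75 TPM in WT and 3.81, 3.55 and 2.74 TPM in cKO. WT library 1 and cKO library 1 were the highest, and the lowest values of the groups were 2.71 and 2.74 TPM (0.10, SE 0.161, 95% interval −0.25 to 0.45, adjusted p = 0.914). Together the class IIa genes made up 11.9% to 13.5% of the members' summed deacetylase TPM in WT and 12.1% to 14.6% in cKO. The class I members Hdac1, Hdac2 and Hdac3 made up 70.0% to 75.6% and 70.5% to 73.5%, with Hdac1 counted alone. The TPM of these class I members, again with Hdac1 counted alone, summed to 140.0, 142 and 148 in WT and 139, 134 and 139 in cKO. Class I genes outside the members are not in that sum. The lowest WT sum, 140.0, was only just above the highest cKO sum, 139.1. Of single genes 14.4% also did not overlap between the groups on the CPM scale, and no test was made of the sum.

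Hdac10 (ENSMUSG00000062906, chromosome 15, 89123307 to 89128700), whose product removes acetyl groups from polyamines, had 6.44, 3.91 and 4.48 TPM in WT and 4.66, 4.68 and 4.33 TPM in cKO. WT library 1, with 432 counts against 284 to 330 in the other 5 libraries, gave the group the widest spread of the 10, a coefficient of variation of 26.9%. All 3 cKO libraries lay inside the WT range (log2 fold change −0.13, SE 0.180, 95% interval −0.52 to 0.26, edgeR adjusted p = 0.890), and without WT library 1 the log2 fold change was 0.07.

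Hdac11 (ENSMUSG00000034245, chromosome 6, 91156665 to 91174692), the sole class IV enzyme, which removes long fatty acyl groups from lysine, had 26.7, 19.5 and 22.3 TPM in WT and 26.3, 23.7 and 23.1 TPM in cKO. All cKO libraries lay inside the WT range (log2 fold change 0.07, SE 0.109, 95% interval −0.16 to 0.31, edgeR adjusted p = 0.902). Part of this level cannot be assigned to the gene. Gm44002, annotated on the opposite strand, lies wholly inside a Hdac11 exon, over 594 bases or 15.4% of the exon length, and counting ignored strand. Between 38.6% and 42.3% of the Hdac11 counts were also counted for Gm44002. Outside it Hdac11 had 1176, 991 and 1131 counts in WT and 1230, 1085 and 1205 in cKO, and the log2 fold change of these counts was 0.08 (SE 0.111, edgeR adjusted p = 0.889).

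Several members had their highest or lowest value of a group in the same library. Within each group, library 1 held the highest CPM of Hdac1, Hdac5, Hdac7, Hdac10 and Hdac11 and the lowest of Hdac2 and Hdac9. WT library 2 held the lowest WT value of 6 members. How many of all genes share this pattern was not counted, so it is not known to be particular to the members. The labels tie the number 1 to no batch, litter or day, and what the number-1 libraries share was not tested.

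**Figure D4:**
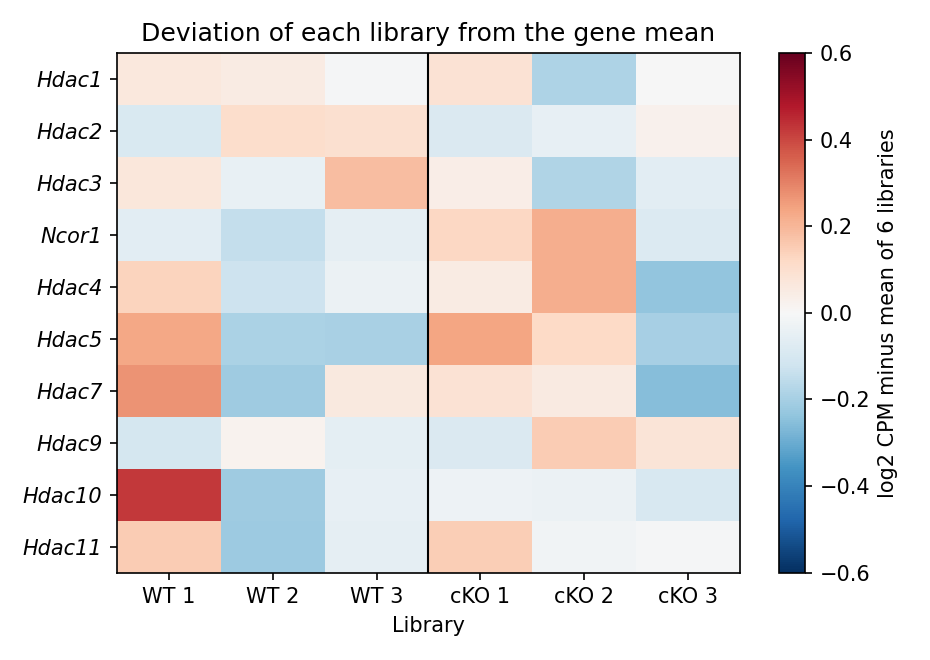
Log2 CPM of each gene in each library, minus its mean over the 6 libraries, in red where higher and blue where lower, with a line between WT and cKO. The columns of WT 1 and cKO 1 are red for Hdac5, Hdac7 and Hdac11 and blue for Hdac2 and Hdac9, and the largest deviation is that of Hdac10 in WT 1.

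Among other genes of the acetylation machinery, none passed the test by edgeR or DESeq2. Of 99 further genes in 9 lists, all tested, edgeR called 0 and DESeq2 0. At an unadjusted p under 0.05 by edgeR, 4 were higher and 2 lower, where 8.51% of all genes tested passed in either direction. The median log2 fold change was 0.04, with 59 above and 40 below 0, and 9 genes had groups that did not overlap, against the 14.4% of all genes. Over all genes tested, 13999 of 28543 lay above 0, and no list was tested as a set.

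Among the other deacetylases, 0 of 9 passed (median −0.06). Sirt1, an NAD-dependent deacetylase that acts on p53 and on AIRE, had 268, 262 and 309.7 TPM in WT and 257, 253 and 305 TPM in cKO, above every library of Hdac2. Its groups overlapped (log2 fold change −0.07, SE 0.0997, edgeR adjusted p = 0.903), and 3.89% of its 25-base words occur in other genes. Sirt7, a nucleolar sirtuin, and Sirt4, a mitochondrial one, had the smallest p of the list, with −0.17 and −0.19 (adjusted p = 0.687 and 0.734).

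Of the other 4 subunits of the NCoR complex, 0 passed (median 0.05). Tbl1x, which encodes a WD-repeat subunit, had 34.3 ± 3.23 TPM in WT and 37.2 ± 3.43 in cKO (SD, n = 3 each), and its relative Tbl1xr1 had 19.6 ± 2.12 and 21.3 ± 2.75 (log2 fold changes 0.10 and 0.10, edgeR adjusted p = 0.817 and 0.845). Among 17 factors and adaptors that recruit NCoR1, 0 passed and 12 lay above 0 (median 0.08). Rbpj, the DNA-binding factor of Notch signalling, had 29.1, 28.2 and 29.1 TPM in WT and 32.7, 32.2 and 32.1 TPM in cKO. Its groups were apart, yet its adjusted p was 0.632 (0.14, SE 0.0716 by edgeR), and 12.7% of its 25-base words occur in other genes. Pparg, the nuclear receptor of fat cells, had 4.97, 4.20 and 4.61 TPM in WT and 4.92, 6.81 and 6.54 in cKO (0.39, SE 0.168, adjusted p = 0.571).

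The complexes that hold HDAC1 and HDAC2 had medians close to 0. Of 15 SIN3 genes 0 passed (median 0.01). Rbbp7, which encodes a histone chaperone shared with NuRD, had 268, 280.4 and 249 TPM in WT and 309, 351 and 297 TPM in cKO, with every cKO library above WT (log2 fold change 0.24, SE 0.0834, edgeR adjusted p = 0.461). That level is uncertain, since 19.2% of its 25-base words occur in other genes and Gm6382, which shares most of them, had a mean of 5604 counts. Arid4a, an RB-binding SIN3 subunit, had 16.6, 14.3 and 13.8 TPM in WT and 18.3, 20.6 and 16.8 in cKO, also apart (0.29, SE 0.101, adjusted p = 0.440).

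Of 9 NuRD genes 0 passed (median 0.01). Chd4, the remodelling ATPase of NuRD, had 83.5 ± 4.05 TPM in WT and 84.5 ± 10.3 in cKO (SD, n = 3 each), and Mta1 and Mbd3 had log2 fold changes of −0.24 and −0.12 (edgeR adjusted p = 0.687 and 0.794). Of 10 genes of the CoREST and MiDAC complexes 0 passed (median 0.00, 0.004 before rounding). Hmg20b, an HMG-box subunit of CoREST, had 20.9, 20.3 and 23.8 TPM in WT and 17.7, 18.4 and 16.9 in cKO. Its cKO libraries were all below WT (−0.32, SE 0.104, edgeR adjusted p = 0.420). Rcor3, a CoREST scaffold whose exons overlap 3 genes on the opposite strand, was low, with 2.59, 2.27 and 2.26 TPM in WT and 3.44, 3.01 and 2.64 in cKO, all above WT (0.33, SE 0.126, adjusted p = 0.503), and Rcor1 had 0.10 (adjusted p = 0.834).

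Of 19 partners of the class IIa proteins 0 passed (median 0.05). Prkd1, which encodes protein kinase D1, a kinase that sends class IIa proteins out of the nucleus, had 8.88, 10.8 and 8.74 TPM in WT and 7.70, 6.93 and 6.87 in cKO. All cKO libraries were below WT, and it had the smallest adjusted p of the 99 genes (log2 fold change −0.43, SE 0.137, edgeR adjusted p = 0.409). Mef2a, a MEF2 factor, had 13.3, 11.8 and 11.2 TPM in WT and 13.6, 14.3 and 13.1 in cKO (0.15, SE 0.0828, adjusted p = 0.665), and 2.06% of its exon bases overlap Lysmd4 on the opposite strand. Ywhae, which encodes a 14-3-3 protein, was the highest of the list at 557 ± 12.6 TPM in WT and 526 ± 56.6 in cKO (SD, n = 3 each).

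Of 13 acetyltransferases and their coactivators 0 passed (median 0.08), and 10 lay above 0. Ep300, which encodes p300, had 18.3, 15.5 and 16.4 TPM in WT and 20.7, 20.3 and 16.5 in cKO (log2 fold change 0.17, SE 0.0924, edgeR adjusted p = 0.665), Ncoa1 had 0.12 (adjusted p = 0.783), and Kat6a, the highest, had 0.03 (adjusted p = 0.967). Of 3 bromodomain readers 0 passed (median −0.02). Brd2 had 81.4 ± 4.90 TPM in WT and 85.5 ± 1.31 in cKO (SD, n = 3 each).

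**Figure D5:**
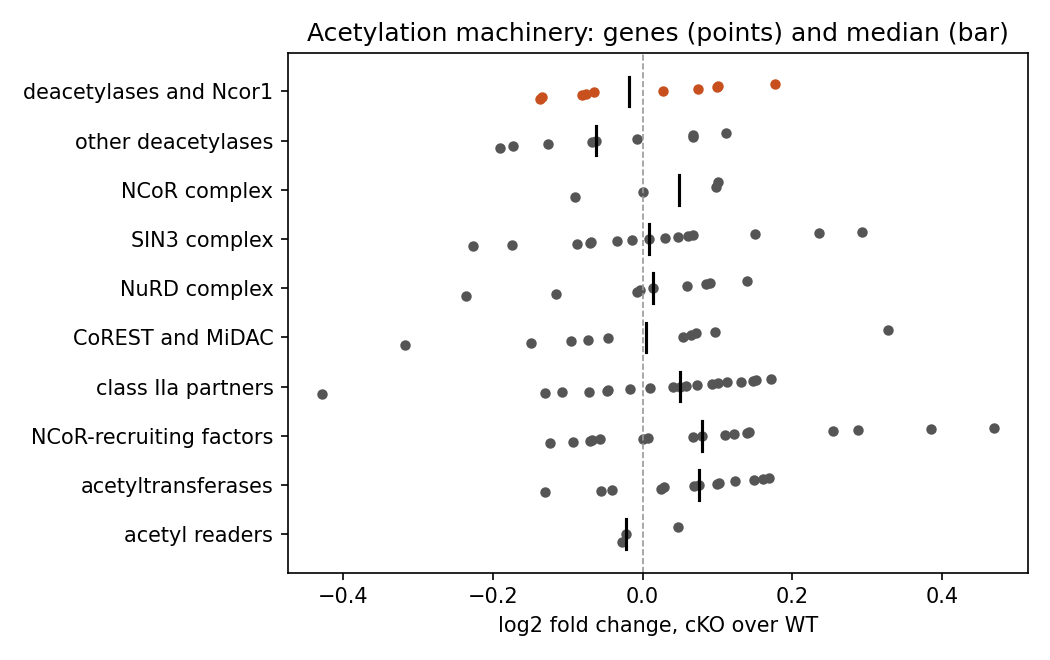
Log2 fold change, cKO over WT, of each tested gene by list (points) with the list median (bar), the 10 genes described here on top. Their values run from −0.14 to 0.18, and the furthest of the other genes lie at −0.43 and 0.47.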

How the data were processed

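Expression was measured by poly(A) RNA sequencing of 3 WT and 3 cKO libraries. The deposited per-library files give raw gene counts. The submitters' processing notes list TopHat2 2.1.1, SAMtools 1.9, Subread 2.0.1 and the build mm10. Per the file headers, featureCounts 2.0.0 summed exons of Ensembl release 99, ignoring strand, counting a read for every gene it overlaps, with no option to count multi-mapping reads. The authors' series table holds the same counts for 51810 of 55385 genes and TPM values, which matched counts per kilobase rescaled to 1000000 within 0.000722% for values over 1; 1 further column of per-sample values was not used.

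Counts were tested with edgeR 4.0.16 in R 4.3.3 (TMM, filterByExpr, robust quasi-likelihood F test, Benjamini-Hochberg over 28543 genes, threshold 0.05), after the code was tested on simulated data. The SE is the log2 fold change over the square root of F. Alternatives used DESeq2 1.42.0, limma 3.58.1 on log2(TPM + 1), other scalings, filters and library sets. Shared 25-base words came from GENCODE M21 transcripts, and Hdac1 and Gm10093 were aligned with Biopython 1.88. No 2 libraries agreed within sampling noise (chi-square per gene 14.6 to 30.8).

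Named genes are the 10 members, Trp53, and of each list the 2 with the smallest p, the one with the highest TPM and any past the threshold, plus the 3 nearest profiles of Hdac3 and Ncor1. Members and lists were chosen with earlier results of these data known. Some items that this rule or the ratios cover are not reported here.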

Additional observations from a re-analysis of the deposited data

How the results depend on the processing

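No member and no listed pathway gene was called under any of 15 alternatives (other scalings and filters, series table counts, the replicate block, DESeq2, limma on log2(TPM + 1), and leaving out each of the 6 libraries), and no member was called in the 2 fits added after seeing the data, with Gm10093 added to Hdac1 or Gm44002 taken from Hdac11. Over all genes the count of 17 became 203 with the replicate block, 160 without a filter (108 higher and 52 lower), 181 with DESeq2 and 1 with limma on log2(TPM + 1), and 6 to 16 without 1 library. Of 152 member values under alternatives, 145 kept their direction and 7 turned it, all when 1 library was left out by edgeR: Hdac1 without cKO library 2, Hdac4 without WT library 2 (−0.03) and cKO library 2, Hdac7 without WT library 1 and cKO library 3 (0.02), Hdac10 without WT library 1, and Hdac11 without WT library 2. Leaving out 1 library, the log2 fold change ran from −0.1244 to 0.0082 for Hdac1, −0.0815 to 0.1424 for Hdac4, −0.1982 to 0.0411 for Hdac7, −0.2618 to 0.0741 for Hdac10 and −0.0104 to 0.1762 for Hdac11. For the members that kept their direction it ran from −0.137 to −0.043 for Hdac2, −0.193 to −0.078 for Hdac3, 0.008 to 0.255 for Hdac5, 0.046 to 0.164 for Hdac9 and 0.109 to 0.258 for Ncor1. The cause was not tested. Neighbouring levels that were apart in WT numbered 3, and 3 to 6 without 1 WT library. Whether the replicate number pairs the libraries is not stated in the labels and was not settled. Deviations from the group means correlated at 0.0955, 0.0446 and 0.0582 for numbers 1 to 3. Between unlike numbers they correlated at −0.0966 to 0.0401, so each library correlated best with its own number. With the replicate block the smallest adjusted p of a member was 0.437, and over the alternatives that of Ncor1 ranged from 0.338 to 0.958. Every member value rests on 284 counts or more, and how much of the spread is counting error was not tested.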
